A study of Homo sapiens with 12 samples.

Results

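FOXM1 was knocked down with an siRNA in hTERT-RPE1 cells, and the 3 libraries that received it (siFOXM1) are compared here with the 3 libraries that received a negative-control siRNA (siNeg), so 6 of the 12 libraries of the series carry the comparison. hTERT-RPE1 is a human retinal pigment epithelial line that was immortalised with telomerase, and the labels give every library as the parental line with a WT genotype. All cells were given 20 nM of siRNA overnight and were harvested at 48 hours, and polyA RNA was sequenced. The other 6 libraries come from cells given an siRNA against CENPF together with the FOXM1 siRNA (siCENPF+siFOXM1, n = 3) or the CENPF siRNA alone (siCENPF, n = 3). Their fold changes serve here as a second, separate measure of the FOXM1 siRNA, because they share no library with siFOXM1 and siNeg. These groups also differed in the level of CENPF, which was higher with siCENPF+siFOXM1 than with siCENPF. Their comparison may therefore hold a weaker CENPF knockdown besides the FOXM1 siRNA. The calls are not separate, because a single fit over all 12 libraries gave both comparisons the same estimate of spread for each gene. The series asks how CENPF and FOXM1 contribute to transcription of centromere and kinetochore genes. Libraries were paired by the replicate number in their labels, and all 14857 genes that reached 10 normalized counts in 3 or more libraries were tested. The sources used here give neither the siRNA sequences, nor whether the double knockdown had 20 nM of each siRNA, nor whether the replicates were separate cultures, so p-values measure only the spread between these libraries, which may be technical.

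FOXM1 is a forkhead transcription factor of dividing cells. It is known to act in G2 and M phase together with the MuvB complex and B-Myb, which bring it to promoters that hold a CHR element (cell cycle genes homology region), and its textbook targets are mitotic cyclins, mitotic kinases and kinetochore genes. Cells of a fixed knockdown time hold many phases at once, so in these bulk libraries fewer cells in a phase and less RNA per cell cannot be told apart.

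Reads counted in genes numbered 13671250 to 17968360 in siFOXM1 and 13681255 to 35411230 in siNeg libraries. Mitochondrially encoded genes took 2.05% to 2.88% of the normalized counts of these libraries. Of the markers of retinal pigment epithelium, 3 of 17 reached 1 FPKM (fragments scaled by gene length and library size) in a library, and RPE65, RLBP1, TYR, TYRP1 and DCT were among the 9 that stayed under 0.1 FPKM in all 6 libraries. The 17 summed to between 30.3 and 46.2 FPKM in siFOXM1 and between 33.1 and 50.5 FPKM in siNeg libraries. Of 8 keratin and junction markers 4 reached 1 FPKM, with CDH1 and EPCAM under 0.1 FPKM. Among markers of other cells, 0 of 10 for blood and endothelium, 1 of 7 for keratinocytes, 2 of 8 for neural cells and 4 of 8 for fibroblasts reached it. The summed fibroblast markers ran from 609 to 684 FPKM in siFOXM1 and from 618 to 699 FPKM in siNeg libraries. COL1A2, DCN and LUM of that list stayed under 0.1 FPKM in all 6 libraries, so the sum came from its other members.

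FOXM1 itself (ENSG00000111206, hg38 chromosome 12, 2857681 to 2877040, minus strand) had 732, 491 and 816 normalized counts in siFOXM1 libraries 1 to 3, against 4186, 4438 and 4763 in siNeg libraries. The groups did not overlap, and FOXM1 was at 15.2% of its siNeg mean (log2 fold change -2.74, SE 0.13, limma's adjusted p = 1.66e-06). Per length, its level averaged 2.16 FPKM in siFOXM1 and 14.3 FPKM in siNeg libraries. The separate libraries gave it 729, 816 and 822 normalized counts with siCENPF+siFOXM1, against 3893, 3394 and 4258 with siCENPF (log2 fold change -2.28). Log2 fold changes here and below are differences of log2(normalized count + 1), which understate the change of low genes.

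Across all genes, limma with the replicate number as a block called 1295 genes at an adjusted p under 0.05 (the threshold behind every call below), which is 8.72% of those tested. Of these, 629 were lower (4.23%) and 666 were higher (4.48%) with siFOXM1. These shares of all genes are the background for every list count of siFOXM1 against siNeg below. The libraries of the groups did not overlap for 6.83% of all genes with siFOXM1 below and 6.56% with siFOXM1 above. Most changes were small: the median log2 fold change of the genes called lower was -0.33 and that of the genes called higher was 0.33, and 28 lower and 15 higher genes changed by log2 1 or more. The count depends on the pairing, since limma without the block called 98 genes (0.66%), 57 lower and 41 higher. Leaving out siFOXM1 library 2, siFOXM1 library 3 or siNeg library 3 left 660, 734 and 781 genes called.

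**Figure D1:**
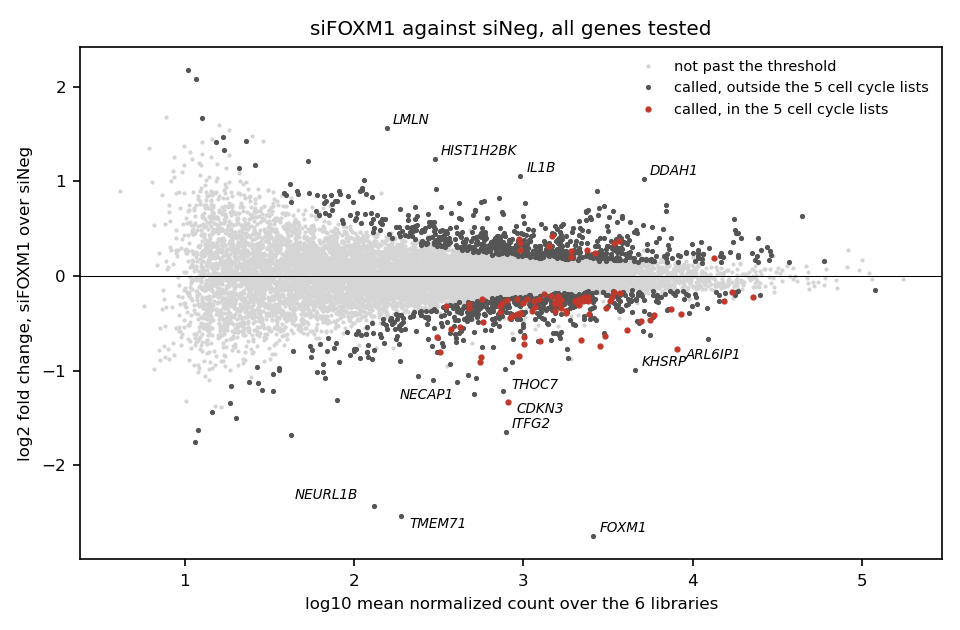
Log2 fold change of siFOXM1 over siNeg (vertical axis) against the log10 mean normalized count over the 6 libraries (horizontal axis) for the 14857 genes tested; dark and red points passed limma's adjusted p of 0.05, and red ones belong to 5 cell cycle lists. FOXM1, TMEM71 and NEURL1B stand apart at log2 -2.42 and below, and LMLN is the highest of the labelled genes at 1.57.

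Cell cycle genes made up a small part of the falling genes, though a larger share than of all genes tested. Of the 629 genes called lower, 71 (11.3%) belonged to 5 lists of cell cycle genes (FOXM1 targets, G2/M phase, G1/S and S phase, kinetochore and centromere, and MuvB, B-Myb and DREAM, with 288 tested genes in all, 1.94% of those tested) and 558 did not. Of the 28 that fell by log2 1 or more, 27 were outside the lists, FOXM1 included, and CDKN3 was the only one inside. Those outside were 96.4%, close to the 98.1% of all genes tested.

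NEURL1B (ENSG00000214357, chromosome 5, 172641266 to 172691540) encodes a ubiquitin ligase of the Neuralized family, which acts on ligands of the Notch receptor. It had 43.8, 39.8 and 36.4 normalized counts in siFOXM1 libraries, against 174, 272 and 220 in siNeg libraries. The siFOXM1 mean of 40.02 ± 3.71 normalized counts lay far below the siNeg mean of 222 ± 48.9 (SD, n = 3 each), and it fell by 2.42 on the log2 scale (SE 0.19, limma's adjusted p = 1.31e-09). Its log2 fold change in the separate libraries was -2.0, with 37.1, 78.9 and 40.3 normalized counts with siCENPF+siFOXM1, against 173, 249 and 186 with siCENPF. NEURL1B shares 383 exon bases with a tested gene on the other strand. Of 27 tested Notch pathway genes NEURL1B was the only one that fell and the ligand gene JAG1, at log2 0.24 (limma's adjusted p = 0.0465), the only one that rose. Each was 3.7% of the list, against 4.23% lower and 4.48% higher of all genes. NOTCH1, the receptor, stood at log2 0.05 (limma's adjusted p = 0.766). JAG1 did not pass without the block, nor without any one of 5 of the 6 siFOXM1 and siNeg libraries.

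TMEM71 (ENSG00000165071), a predicted transmembrane protein gene, had 50.01, 53.6 and 62.8 normalized counts in siFOXM1 libraries, against 288, 353 and 334 in siNeg libraries. Its groups were far apart and it fell by 2.53 on the log2 scale (SE 0.15, limma's adjusted p = 2.50e-11). Both genes were low in abundance: TMEM71 averaged 0.267 FPKM in siFOXM1 and 1.66 FPKM in siNeg, and NEURL1B averaged 0.223 and 1.34 FPKM in these groups.

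ITFG2 (ENSG00000111203, chromosome 12, 2812622 to 2859791), a subunit of the KICSTOR complex of mTORC1 signalling, had 365, 365 and 407 normalized counts in siFOXM1 libraries, against 1062, 1223 and 1290 in siNeg libraries (log2 fold change -1.65, SE 0.10, limma's adjusted p = 1.02e-10). ITFG2 is the convergent neighbour of FOXM1, and 781 exon bases of the annotation belong to both genes on opposite strands. No source used here says whether counting used strand, so reads of ITFG2 and FOXM1 in that overlap cannot be told apart.

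THOC7, a subunit of the THO complex that couples transcription to mRNA export, had 508, 369 and 491 normalized counts in siFOXM1 libraries, against 1039, 950 and 1161 in siNeg libraries (log2 fold change -1.21, SE 0.09, limma's adjusted p = 7.30e-10). KHSRP, a KH-domain protein that promotes decay of mRNAs with AU-rich elements, had 3173, 2819 and 3115 normalized counts in siFOXM1 libraries, against 6097, 5633 and 6452 in siNeg libraries. Its libraries were 50.1% of siNeg on average with little spread (log2 fold change -1.0, SE 0.05, limma's adjusted p = 5.08e-12).

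The mRNA export list held 25 tested genes, of which 5 fell and 0 rose, with 2 above 0 at an unadjusted p under 0.05 and 0 called higher by edgeR or DESeq2. Besides THOC7 these were FYTTD1, the export adaptor UIF, at log2 -0.60 (limma's adjusted p = 1.87e-07), the cap-binding subunits NCBP1 and NCBP2 at -0.25 and -0.24 (limma's adjusted p = 0.00363 and 0.00811), and POLDIP3 at -0.21. The median log2 fold change of the list was -0.06, against -0.00 over all genes. THOC7 and FYTTD1 also fell in the separate libraries and passed without the block, and the calls of NCBP1 and NCBP2 ended without the block and without siFOXM1 library 2, and that of NCBP2 also without siNeg library 1.

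RMND5A, a RING subunit of the CTLH ubiquitin ligase, had 341, 341 and 330 normalized counts in siFOXM1 libraries, against 679, 714 and 749 in siNeg libraries (log2 fold change -1.08, SE 0.08, limma's adjusted p = 9.16e-10). Of the 12 tested CTLH genes 2 fell, RMND5A and GID8, and 2 rose, WDR26 and the substrate receptor GID4, so the list did not move one way (median log2 fold change -0.00). GID8 stood at log2 -0.29 and GID4 at 0.40 (limma's adjusted p = 0.0204 and 0.0139), and of these 4 RMND5A alone passed without the block. The call of GID8 also ended without siFOXM1 library 2 or 3 or siNeg library 2, and that of GID4 without siFOXM1 library 1 or 2 or siNeg library 3.

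CNTRL, which encodes centriolin of the mother centriole and midbody, averaged 254 ± 38.5 normalized counts in siFOXM1 and 551 ± 73.1 in siNeg libraries (SD, n = 3 each) and fell by 1.12 on the log2 scale (limma's adjusted p = 4.20e-09). SCLT1, a protein of the distal appendages of the centriole, fell by 0.57 (limma's adjusted p = 4.11e-05). Of 49 tested centriole and centrosome genes 3 fell (with HAUS2) and 3 rose (TUBGCP3, CNTROB and CCP110). Each direction held 6.12% of the list, against 4.23% lower and 4.48% higher of all genes, and the median was -0.03. CNTRL and SCLT1 passed without the block and in the separate libraries too.

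Among the others, BAK1, a pore-forming protein of apoptosis, had 272, 203 and 292 normalized counts in siFOXM1 libraries, against 549, 449 and 455 in siNeg libraries (log2 fold change -0.93, limma's adjusted p = 5.82e-07). FKBP5, a co-chaperone of steroid receptors, fell by 0.91 on the log2 scale (limma's adjusted p = 2.34e-09) and averaged 600 ± 123 normalized counts in siFOXM1 and 1117 ± 157 in siNeg libraries (SD, n = 3 each). B3GNT5, which makes the precursor of lacto-series glycosphingolipids, fell by 1.06 (limma's adjusted p = 1.35e-06), and 1315 of its exon bases overlap MCF2L2 on the other strand. Of 19 tested genes of glycosphingolipid synthesis B3GNT5, B4GALT6 and SGMS2 fell and SPTLC2 rose, and of these 4 calls that of B3GNT5 alone held without the block. B4GALT6, a lactosylceramide synthase, stood at log2 -0.38 (limma's adjusted p = 0.00573), and its call also ended without siFOXM1 library 2. That of SGMS2 also ended from FPKM, by DESeq2 and without any one of the siFOXM1 and siNeg libraries. NECAP1, an adaptor of clathrin coats, SMIM13 and GPR180 fell by 1.25, 1.04 and 0.98 on the log2 scale (limma's adjusted p = 9.16e-10, 9.93e-08 and 3.76e-09), with no overlap between the groups.

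SPP1, which encodes the secreted protein osteopontin, showed how far these results lean on the pairing. It had 210, 45.4 and 163 normalized counts in siFOXM1 libraries 1 to 3, against 336, 124 and 244 in siNeg libraries 1 to 3. The groups overlapped, while siFOXM1 was lower within every numbered pair, with log2 differences of -0.67, -1.43 and -0.58 (mean log2 fold change -0.90, limma's adjusted p = 0.00163, and 0.871 without the block). Of the 15 named falling genes outside the cell cycle lists, NECAP1, GPR180 and SPP1 did not pass without the block (limma's adjusted p = 0.109, 0.163 and 0.871), and the other 12 did.

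**Figure D2:**
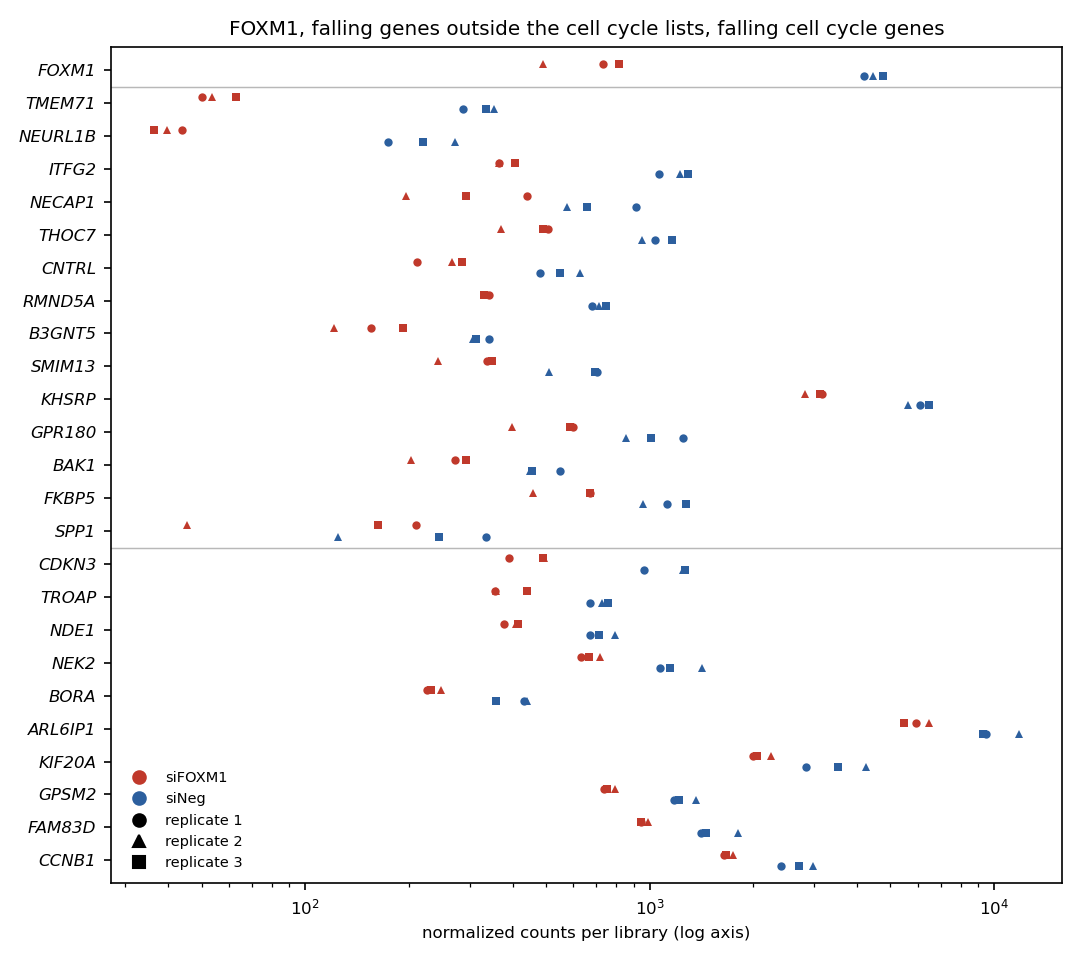
Normalized counts of single libraries on a log axis for FOXM1, named falling genes outside the cell cycle lists and the 10 named falling genes inside them; red is siFOXM1, blue is siNeg, and the marker shape gives the replicate number. The colours do not overlap for any gene shown other than SPP1, and the same marker shape lies low or high in both colours for NECAP1, GPR180 and SPP1.

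The separate libraries gave these falls a second measurement of the fold change, while the calls rest on a spread that both comparisons share. Both comparisons used the FOXM1 siRNA, so an effect of FOXM1 loss and another effect of that siRNA cannot be told apart here. With siCENPF+siFOXM1 against siCENPF, limma called 217 genes (1.46%), 153 lower (1.03%) and 64 higher (0.431%), and the libraries did not overlap for 3.73% of all genes below and 3.7% above. Of the 629 genes called lower with siFOXM1 against siNeg, 579 (92.1%) had a log2 fold change below 0 there and 123 (19.6%) were called lower, against 51.1% and 1.03% of all genes tested. Falling genes outside the cell cycle lists did so in 513 of 558 cases (91.9%) and those inside in 66 of 71 (93.0%). The changes were smaller, with a median log2 fold change of -0.16 for the 629 genes.

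Of the 15 named falling genes outside the lists, 13 were called lower in the separate libraries as well, with log2 fold changes between -0.52 for GPR180 and -2.0 for NEURL1B. The exceptions were SMIM13 at -0.32 and SPP1 at -0.57 (limma's adjusted p = 0.160 and 0.129). WWTR1, which encodes the Hippo pathway coactivator TAZ and was picked here after its values were seen, had 1434, 1180 and 1260 normalized counts in siFOXM1 libraries, against 2464, 2589 and 2040 in siNeg libraries. It had 1531, 1520 and 1360 with siCENPF+siFOXM1, against 2932, 2695 and 2384 with siCENPF. The log2 fold changes were -0.87 and -0.86 in these comparisons (limma's adjusted p = 9.16e-10 and 5.12e-09), and 795 of its exon bases overlap WWTR1-AS1 on the other strand.

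Of the 666 genes called higher, 494 (74.2%) were above 0 in the separate libraries, against 48.9% of all genes, and 36 (5.41%) were called higher, against 0.431%. Their median log2 fold change there was 0.08. Of the 41 that also passed without the block, 19 were above 0 and 4 were called higher in the separate libraries. Of the 57 falling genes that passed without the block, 56 were below 0 and 45 were called lower.

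**Figure D3:**
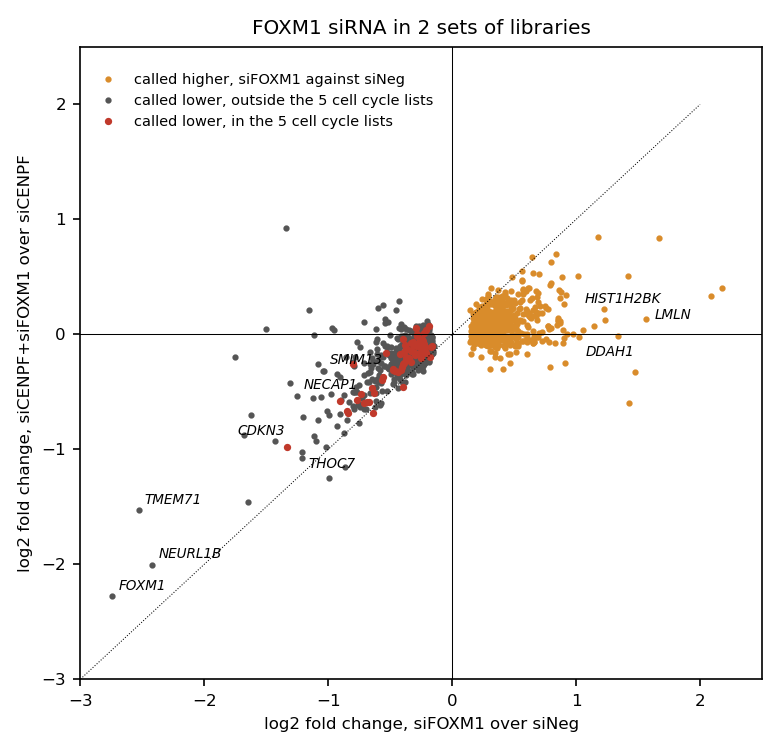
Log2 fold changes of the 1295 genes called with siFOXM1 against siNeg (horizontal axis) set against those with siCENPF+siFOXM1 over siCENPF (vertical axis), which come from other libraries; the dotted line marks equal change. Most falling genes (579 of 629) lie below 0 on both axes, while rising genes lie flat around a median of 0.08 on the vertical axis.

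For several of the named rising genes, the siNeg libraries were low and the libraries of the other 3 groups lay close together. LMLN, which encodes a leishmanolysin-like metalloprotease, had 284, 217 and 199 normalized counts in siFOXM1 libraries, against 69.8, 82.9 and 79.3 in siNeg libraries. It had 204, 237 and 235 with siCENPF+siFOXM1, against 229, 177 and 213 with siCENPF. The siNeg libraries lay below every other library (log2 fold change of siFOXM1 over siNeg 1.57, SE 0.15, limma's adjusted p = 2.63e-08). Adding the FOXM1 siRNA to the CENPF siRNA moved LMLN by log2 0.13 (limma's adjusted p = 0.773), and the difference between the 2 effects was -1.43 (limma's adjusted p = 0.000219).

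DDAH1, an enzyme that breaks down the nitric oxide synthase inhibitor asymmetric dimethylarginine, was an abundant case. It had 7590, 6344 and 6668 normalized counts in siFOXM1 libraries, against 3898, 2786 and 3524 in siNeg libraries (log2 fold change 1.02, SE 0.06, limma's adjusted p = 6.23e-12). It had 7428, 6518 and 7387 with siCENPF+siFOXM1, against 7539, 6855 and 7263 with siCENPF (log2 fold change -0.02, limma's adjusted p = 0.916). SRPR, the receptor for the signal recognition particle, had 3837, 3237 and 3452 in siFOXM1 libraries, against 2101, 1606 and 1975 in siNeg libraries (log2 fold change 0.89, limma's adjusted p = 1.33e-11). SRPR had 3710, 3166 and 3597 with siCENPF+siFOXM1, against 4159, 3168 and 3767 with siCENPF. For both genes siNeg was the one group apart.

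IL1B, the cytokine interleukin 1 beta, had 1721, 1322 and 829 normalized counts in siFOXM1 libraries 1 to 3, against 805, 717 and 361 in siNeg libraries 1 to 3 (log2 fold change 1.06, SE 0.08, limma's adjusted p = 3.03e-09, and 0.650 without the block). It had 1809, 1629 and 894 with siCENPF+siFOXM1, against 2156, 1530 and 734 with siCENPF. Every group was highest in library 1 and lowest in library 3. HDAC1, a histone deacetylase picked after its values were seen, had 1282, 1306 and 1257 in siFOXM1 libraries, against 715, 782 and 755 in siNeg libraries and 1222, 1301 and 1293 in siCENPF libraries (log2 fold change of siFOXM1 over siNeg 0.77, limma's adjusted p = 4.00e-09).

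MPRIP, a protein that targets myosin phosphatase to actin fibres, rose by log2 0.75 (SE 0.05, limma's adjusted p = 4.15e-11) and stood at -0.04 in the separate libraries. It led 37 actomyosin regulators, of which 5 rose and 0 fell, with 4 below 0 at an unadjusted p under 0.05 and 0 called lower by edgeR or DESeq2. Without the block MPRIP alone of the 5 passed. The histone genes HIST1H2BK and HIST1H4I rose by log2 1.23 and 0.93 (limma's adjusted p = 2.36e-07 and 0.000537), and both belong to a family of near-identical copies, so their counts are uncertain. KIAA1467 rose by 0.91 and passed without the block, as did HIST1H2BK. CMKLR1, a chemerin receptor, and TMEM106A rose by 1.02 and 0.90 with overlapping groups, and their calls ended without the block, as did those of IL1B, COL1A1 and HIST1H4I.

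The siNeg libraries are common to every rise and every fall in this comparison. A change with siFOXM1 and a difference particular to the siNeg libraries therefore cannot be told apart from these 6 libraries. Of all genes, the effect of the FOXM1 siRNA differed between the siCENPF and siNeg backgrounds for 125 (0.841%), with 109 below 0 (0.734%) and 16 above 0 (0.108%). For this difference between backgrounds limma without the block called 0, with 353 at an unadjusted p under 0.05, and with the block edgeR called 117 and DESeq2 132. With siFOXM1 against siCENPF, a comparison that shares the siFOXM1 libraries, limma called 1125 genes (7.57%), 628 lower (4.23%) and 497 higher (3.35%), and 68 without the block.

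Among the cell cycle genes, a limited set of G2 and M phase transcripts fell and most did not. Of 161 tested G2/M genes 36 fell (22.4%) and 11 rose (6.83%), with a median log2 fold change of -0.01. Of 36 FOXM1 targets 11 fell and 2 rose, with a median of -0.02. The FOXM1 targets that fell were CDKN3, CCNA2, CCNB1, NEK2, KIF20A, CDC25B, CENPA, CCND1, CDK1, CCNB2 and PTTG1. Without the block the calls of 13 falling G2/M genes remained and those of the 11 rising ones ended.

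CDKN3, a phosphatase that acts on CDK2, had 390, 494 and 491 normalized counts in siFOXM1 libraries, against 962, 1249 and 1262 in siNeg libraries. It was the steepest of the cell cycle genes (log2 fold change -1.33, SE 0.09, limma's adjusted p = 1.23e-10). CCNB1, cyclin B1 of the mitotic CDK1 complex, had 1641, 1747 and 1665 normalized counts in siFOXM1 libraries, against 2399, 2975 and 2706 in siNeg libraries (log2 fold change -0.67, SE 0.06, limma's adjusted p = 6.31e-09). CCNA2, cyclin A2, had 2307, 2378 and 2457 in siFOXM1, against 3407, 3944 and 3719 in siNeg libraries (log2 fold change -0.63, limma's adjusted p = 3.47e-09). For all 3 the siFOXM1 libraries lay below every siNeg library.

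NEK2, a kinase of centrosome separation, and KIF20A, a kinesin of cytokinesis, fell by 0.84 and 0.74 on the log2 scale (limma's adjusted p = 1.96e-08 and 2.08e-08). TROAP, NDE1, GPSM2 and FAM83D, proteins of spindle assembly, dynein regulation, spindle orientation and spindle positioning, fell by 0.91, 0.85, 0.71 and 0.69 (limma's adjusted p = 1.28e-08, 2.48e-08, 6.63e-08 and 1.64e-07). ARL6IP1, a membrane-shaping protein of the endoplasmic reticulum, had 5921, 6478 and 5457 normalized counts in siFOXM1 libraries, against 9475, 11790 and 9286 in siNeg libraries (log2 fold change -0.77, limma's adjusted p = 4.33e-10). BORA, the cofactor of Aurora A in activating Polo-like kinase, fell by 0.80 (limma's adjusted p = 2.05e-05). BORA did not pass without the block (limma's adjusted p = 0.0607) or in the separate libraries (log2 fold change -0.26, limma's adjusted p = 0.335). The other 9 of the 10 named falling cell cycle genes passed both. Exons of GPSM2 and CLCC1 share 2801 bases, those of BORA and DIS3 share 1180 and those of NDE1 and MYH11 share 765, each on opposite strands. Shorter overlaps with tested genes on the other strand were annotated for CCNA2 (254 bases with EXOSC9), TROAP, KIF20A, FYTTD1, BAK1 and SCLT1. CENPA shares 138 exon bases with SLC35F6 on the same strand.

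Several textbook targets did not fall. PLK1, the Polo-like kinase, had 3296, 3561 and 3693 normalized counts in siFOXM1 libraries, against 3204, 3318 and 3433 in siNeg libraries (log2 fold change 0.08, limma's adjusted p = 0.371). AURKB stood at log2 0.05 and BIRC5, survivin, at 0.12 (limma's adjusted p = 0.692 and 0.180). In all 3 the libraries of the groups overlapped.

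The G2/M genes that rose were PRR11, DEPDC1, TTK, PSRC1, G2E3, TOP2A, CIT, CCDC18, IQGAP3, KIF22 and CKS2. TTK, the MPS1 kinase of the spindle checkpoint, rose by log2 0.43 (limma's adjusted p = 4.11e-05), without overlap between the groups. TOP2A, a topoisomerase of chromosome segregation, had 12083, 17734 and 13055 normalized counts in siFOXM1 libraries, against 10187, 15714 and 11712 in siNeg libraries (log2 fold change 0.19, limma's adjusted p = 0.00594). The groups overlapped and each pair was higher with siFOXM1. In the separate libraries 21 G2/M genes were called lower and 10 higher, TOP2A among those called higher at log2 0.27. AURKA, the Aurora A kinase, stood at log2 0.15 against siNeg and rose by log2 0.22 in the separate libraries (limma's adjusted p = 0.0681 and 0.0203).

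The letters of the CHR element were looked for in the promoters of these genes, because that element is the known route of FOXM1 to its G2/M targets. Promoters were taken from RefSeq (GRCh38.p14) as 250 bases before to 50 bases after the gene start, and 9903 of the 11900 protein-coding genes tested had one (83.2%). The letters TTTGAA or TTCGAA, on either strand, were in 1107 of the 9903 promoters (11.2%). Among G2/M genes they were in 15 of 32 promoters of genes that fell (46.9%), in 10 of 10 of those that rose (100%) and in 60 of 93 of those not called (64.5%). Promoters of CDKN3, GPSM2, CENPA and CCNB2, which fell, and of TOP2A, DEPDC1, PSRC1 and CKS2, which rose, show the letters in both directions of change. A match of letters does not show binding, which was not tested. Among named falling genes outside the cell cycle lists, the promoters of NEURL1B and FKBP5 carry the letters too, both without CCAAT. Those of ITFG2, NECAP1, CNTRL, RMND5A, B3GNT5, SMIM13, KHSRP, GPR180, BAK1 and SPP1 were searched and do not. In these stretches the letters searched for are in capitals:
NEURL1B (chr5:172641117-172641144, minus strand): ccgccgcatctTTTGAAagtttgcacca
CDKN3 (chr14:54396826-54396853, minus strand): cctagaagaccTTTGAAagacgcgcggg
GPSM2 (chr1:108876940-108876967, plus strand): ggcgttgtcggTTTGAAtgagagcgcct
CENPA (chr2:26786027-26786054, plus strand): ggagcgagcgaTTTGAAcgcgagcggcg
CCNB2 (chr15:59105106-59105133, plus strand): gcgacgcggtaTTTGAAtcctggaacaa
TOP2A (chr17:40418031-40418058, plus strand): gccggggtttgTTTGAAtaaaccaatca
DEPDC1 (chr1:68497093-68497120, plus strand): cccgccgccgaTTTGAAtagcatagagg
PSRC1 (chr1:109283158-109283185, minus strand): ggcctgagagaTTCGAAaggagccccgc
CKS2 (chr9:89311155-89311182, minus strand): aacgatccggaTTTGAAtccgacagccc

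The letters lay 29 bases before the gene start in CCNB2, CKS2 and PSRC1, 27 in DEPDC1, 18 in CENPA and 34 in GPSM2. They lay 135 and 170 bases before it in NEURL1B and CDKN3. TOP2A held the letters in 2 places, 151 bases (the stretch shown) and 194 bases before the start. Promoters of CCNB1, CCNA2, NEK2 and KIF20A were searched and did not hold these letters in this window. Of genes that fell outside the cell cycle lists 62 of 430 promoters held them (14.4%), and of all genes that rose 60 of 505 did (11.9%). The forkhead letters TGTTTAC, on either strand, were in 1 of 32 promoters of falling G2/M genes (3.12%), in 7 of 430 of falling genes outside the lists (1.63%) and in 224 of 9903 in all (2.26%). CCAAT, on either strand, was in 19 of the 32 (59.4%), in 160 of the 430 (37.2%) and in 3658 of all (36.9%). It was in 8 of 10 promoters of rising G2/M genes (80.0%) and in 64 of 93 of G2/M genes not called (68.8%), both higher shares than among the falling ones.

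**Figure D4:**
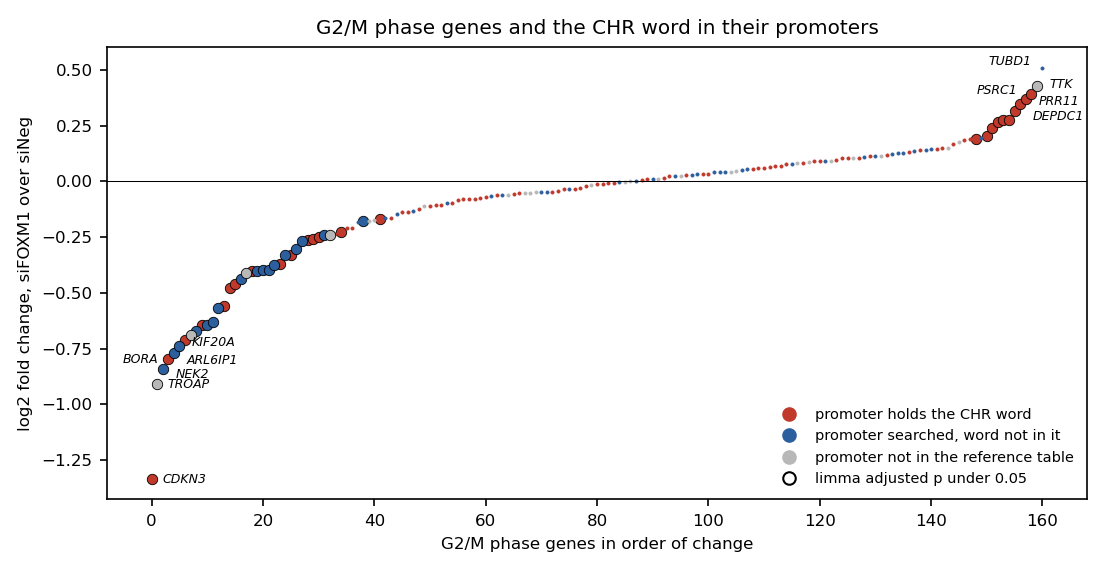
The 161 tested G2/M genes in order of their log2 fold change of siFOXM1 over siNeg (vertical axis); red points have the CHR letters in their promoter, blue points do not, grey points had no promoter in the table, and black rims mark limma's adjusted p under 0.05. Red points occur at both ends, in 15 of 32 searched genes that fell and in 10 of 10 that rose.

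Of 82 tested G1/S and S phase genes 29 fell (35.4%) and 0 rose, with 1 above 0 at an unadjusted p under 0.05, and edgeR and DESeq2 likewise called 0 higher. The median log2 fold change of the list was -0.18, and 76 of its 82 members were below 0. MCM6, a subunit of the replicative helicase, had 1433, 1332 and 1890 normalized counts in siFOXM1 libraries 1 to 3, against 1819, 1823 and 2449 in siNeg libraries 1 to 3. Library 3 was higher in both groups, so the groups overlapped while every pair fell (log2 fold change -0.39, SE 0.05, limma's adjusted p = 2.05e-05). RRM2, a subunit of ribonucleotide reductase, ORC1 of the origin recognition complex and the helicase HELLS fell by 0.35, 0.53 and 0.39 on the log2 scale (limma's adjusted p = 4.84e-05, 0.000432 and 0.000465). Helicase subunits MCM2, MCM3 and MCM5, the licensing factors CDC6 and CDT1, and the regulators E2F1 and CCNE2 were also among the 29.

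The calls of all 29 ended without the block. In the separate libraries 2 were called lower, MCM6 and RRM2, and the median was -0.06. With siFOXM1 against siCENPF, 2 of the 82 were called lower and 3 higher, the median was 0.04 and 54 were above 0. Summed over the list, libraries 1 to 3 had 110461, 103168 and 121898 normalized counts in siFOXM1 and 106083, 101458 and 124455 in siCENPF. The siNeg libraries had 119921, 114128 and 144599. A change with siFOXM1 and a difference particular to the siNeg libraries cannot be told apart here either. By pair of siFOXM1 and siNeg libraries, the median log2 difference of the list was -0.12, -0.14 and -0.24. In the pair of libraries 3 the siFOXM1 library had 17968360 reads and the siNeg library 35411230. The part of this depth difference in the result was not tested.

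Most kinetochore and centromere genes, the subject of the series, were not called. Of 48 tested 6 fell (NDE1, NUF2, CENPA, CENPU, SKA2 and MIS12) and TTK rose, with a median of -0.01. The share that fell was 12.5%, against 4.23% of all genes, and the share that rose was 2.08%, against 4.48%. CENPA, the histone H3 variant of centromeres, fell by 0.56 on the log2 scale (limma's adjusted p = 0.000224) and NUF2 of the NDC80 complex by 0.37 (limma's adjusted p = 0.000150). Neither passed without the block (limma's adjusted p = 0.573 and 0.680). Of 13 genes of MuvB, B-Myb and DREAM, the complexes that FOXM1 joins, RBL2 rose by log2 0.35 and DYRK1A fell by 0.25 (limma's adjusted p = 0.00625 and 0.0465), neither without the block. The call of RBL2 also ended without siFOXM1 library 1 or 2 or siNeg library 1, and that of DYRK1A without any one of the siFOXM1 and siNeg libraries. MYBL2, which encodes B-Myb, stood at log2 0.00 (limma's adjusted p = 0.983), and fell by 0.25 in the separate libraries (limma's adjusted p = 0.0283). CENPF, the kinetochore protein that the other siRNA targets, had 7567, 7448 and 7723 normalized counts in siFOXM1 libraries, against 7797, 9537 and 7993 in siNeg libraries (log2 fold change -0.15, limma's adjusted p = 0.250).

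**Figure D5:**
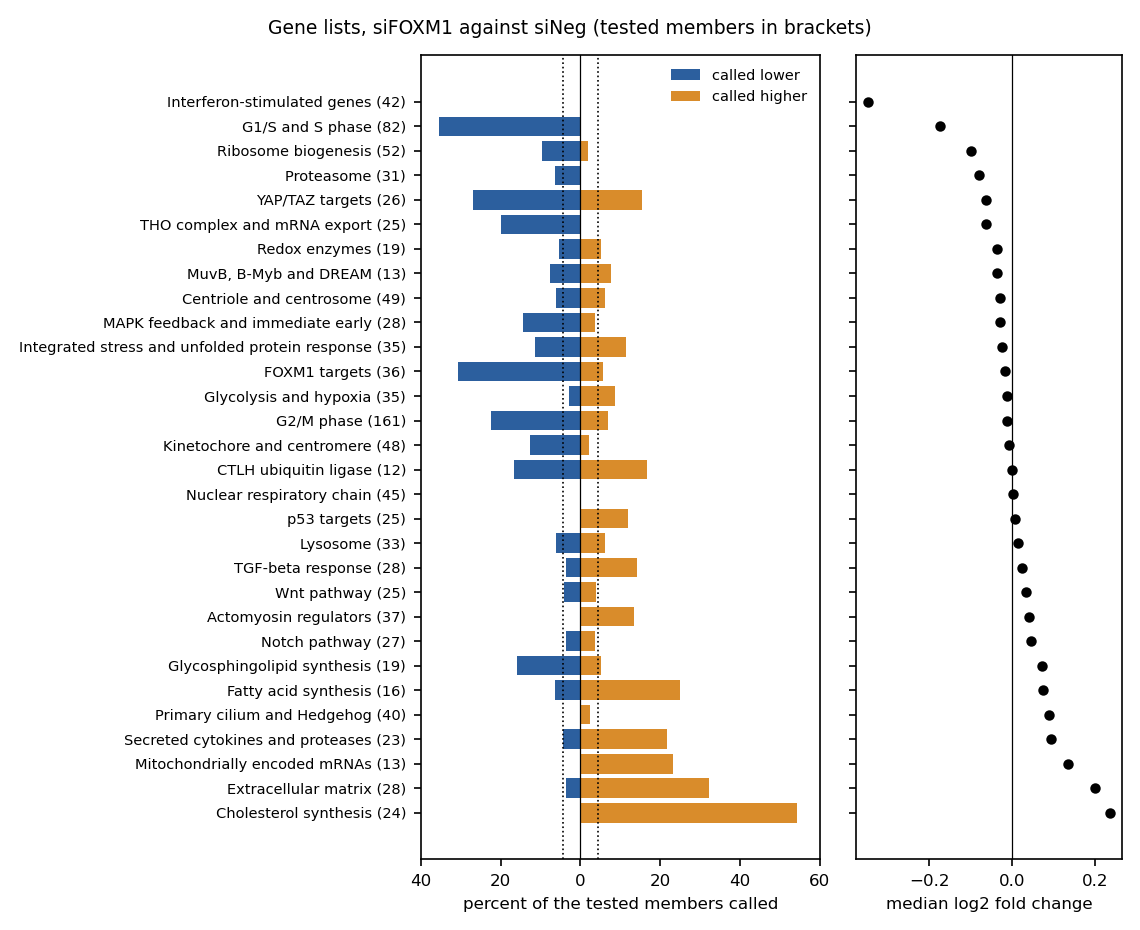
Left, the percent of tested members of each gene list that limma called lower (blue, to the left) or higher (orange, to the right) with siFOXM1 against siNeg, with dotted lines at the 4.23% and 4.48% of all genes; right, the median log2 fold change of each list. Cholesterol synthesis has the highest share called higher (13 of 24) and the G1/S and S phase list the highest share called lower (29 of 82), while the interferon list has a median of -0.35 with no member called.

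Outside the cell cycle, genes of cholesterol synthesis were the list with the highest share of calls. Of 24 tested 13 rose (54.2%) and 0 fell, with 0 below 0 at an unadjusted p under 0.05 and 0 called lower by edgeR and DESeq2, and 23 of 24 were above 0 (median log2 fold change 0.24). MSMO1, a sterol demethylase, had 2579, 5041 and 3651 normalized counts in siFOXM1 libraries 1 to 3, against 1893, 2675 and 1989 in siNeg libraries 1 to 3. The second library was high in both groups, so that the ranges overlapped, and each pair rose (log2 fold change 0.75, SE 0.07, limma's adjusted p = 2.50e-07). DHCR7, SQLE and IDI1, enzymes of the same route, rose by log2 0.43, 0.40 and 0.37 (limma's adjusted p = 3.74e-05, 4.09e-05 and 0.000339).

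By pair the list's median was 0.10, 0.35 and 0.37, and the calls of all 13 ended without the block. Again 23 of 24 were above 0 in the separate libraries, with a median of 0.13, and DHCR7, IDI1 and MVD were called higher. Fatty acid genes went partly the same way: of 16 tested, SCD, SREBF1, FASN and FADS2 rose and SCD5 fell. SCD, the desaturase that makes oleic acid, rose by log2 0.45 and SCD5, a second desaturase, fell by 0.44 (limma's adjusted p = 8.24e-05 and 0.000156), and the 5 calls ended without the block.

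Extracellular matrix genes rose in 9 of 28 cases and LOX fell, with a median of 0.20. COL1A1, the main chain of collagen I, had 203, 695 and 283 normalized counts in siFOXM1 libraries 1 to 3, against 103, 383 and 149 in siNeg libraries 1 to 3. The second library was high in both groups and the ranges overlapped, while the pairs rose by log2 0.98, 0.86 and 0.92 (limma's adjusted p = 2.22e-05, and 0.853 without the block). COL4A1 of basement membranes and the matrix protein SPARC rose by log2 0.49 and 0.46 (limma's adjusted p = 3.08e-06 and 2.05e-06), and COL4A1 passed without the block too. COL4A1 stood in the separate libraries at log2 -0.01 and SPARC at 0.07, and VCAN was the 1 gene of the list called higher and LOX the 1 called lower.

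Hippo pathway targets, whose coactivator TAZ is encoded by WWTR1, split in direction: of 26 YAP/TAZ targets 7 fell and 4 rose, with a median of -0.06. IGFBP3, a secreted binder of insulin-like growth factors, had 5193, 3640 and 4299 normalized counts in siFOXM1 libraries, against 7908, 5314 and 6999 in siNeg libraries (log2 fold change -0.62, limma's adjusted p = 4.34e-08, and 0.115 without the block). PTPN14, a phosphatase that restrains YAP, and LATS2, the kinase upstream of it, fell by 0.49 and 0.46 (limma's adjusted p = 4.47e-06 and 8.38e-05), and of these PTPN14 passed without the block. In the separate libraries 5 of the 26 were called lower and 0 higher, with 2 above 0 at an unadjusted p under 0.05 and 0 called higher by edgeR or DESeq2. The 5 were IGFBP3 at log2 -0.58, PTPN14 at -0.26, ANKRD1, CTGF and TGFB2. With siFOXM1 against siCENPF 10 were called lower, ANKRD1 and CTGF among them, and 2 higher. Against siNeg, YAP1 itself stood at log2 -0.08 (limma's adjusted p = 0.358), and CYR61, another target, at 0.13 (limma's adjusted p = 0.0865). ANKRD1 was among the 7 that fell against siNeg, and CTGF was not called there. DDAH1 was among the 4 that rose. GJA1, the gap junction protein connexin 43, and SUZ12, a core subunit of Polycomb repressive complex 2, were picked after their values were seen. GJA1 fell by 0.58 and SUZ12 by 0.68 on the log2 scale (limma's adjusted p = 3.98e-09 and 6.05e-08), and both fell in the separate libraries, by 0.42 and 0.34.

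In other signalling lists the counts were small. Of 28 TGF-beta response genes PMEPA1, SMAD3, TGFB1 and LTBP2 rose and TGFBR1 fell, and the 5 calls ended without the block. Of 23 secreted cytokines and proteases IL1B, VEGFA, PLAU, MMP14 and LIF rose and IGFBP3 fell, and the 6 calls ended without the block. VEGFA rose by log2 0.62 and the urokinase gene PLAU by 0.36 (limma's adjusted p = 5.74e-05 and 0.000150), and both were called higher in the separate libraries too, at log2 0.40 and 0.30. Of 28 genes of MAPK feedback and immediate early response JUN, IER5, ETV4 and IER2 fell and SPRY2 rose, and the 5 calls ended without the block. Of 25 p53 targets SESN2, POLH and BBC3 rose and 0 fell, with 2 below 0 at an unadjusted p under 0.05 and 0 called lower by edgeR or DESeq2, the median was 0.01, and the 3 calls ended without the block. Of 19 redox enzymes, a group in which FOXM1 targets are known, PRDX1 rose by log2 0.36 and TXNRD1 fell by 0.20 (limma's adjusted p = 0.000139 and 0.0215), neither without the block. Each was 5.26% of that list, against 4.48% higher and 4.23% lower of all genes. Of 35 genes of the integrated stress and unfolded protein responses 4 fell, with PSAT1 at log2 -0.33, and 4 rose, with CREB3L2 and DNAJB9 at 0.53 and 0.78 (limma's adjusted p = 0.000799, 1.94e-07 and 7.01e-06), and CREB3L2 alone passed without the block.

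The median for interferon-stimulated genes was -0.35 on the log2 scale, the lowest of any list other than those of cell type markers, and limma called none of 42, with 2 lower at an unadjusted p under 0.05, 1 called lower by edgeR and 0 by DESeq2. The difference was largest in the first pair. Summed over the 42 genes, siFOXM1 library 1 had 50862 normalized counts, against 93592 in siNeg library 1. siFOXM1 libraries 2 and 3 had 16538 and 17498, against 17675 and 18078 in siNeg. By pair the median log2 difference was -0.89, -0.21 and -0.00. IFIT1, an interferon-induced RNA-binding protein, had 2994, 142 and 242 normalized counts in siFOXM1 libraries, against 7430, 243 and 349 in siNeg libraries (log2 fold change -0.87, limma's adjusted p = 0.422). Library 1 of both groups stood far above the other libraries. IFIT1 was picked after its values were seen. The separate libraries had pair medians of -1.20, 0.00 and 0.04.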

How the data were processed

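PolyA RNA of 12 hTERT-RPE1 libraries, 3 in each of 4 groups, was sequenced. Reads were processed by the authors with bcl2fastq, Trimmomatic, TopHat and edgeR on hg38, per the submitters' processing notes. Versions and strand setting are not stated in the sources. The deposited tables give normalized counts (a scaled signal, 14862 genes), FPKM (60279 genes) and, per the file headers, the authors' edgeR comparisons with CPM, p-values, log2 fold changes and the score of a likelihood ratio test, of which the CPM alone were used.

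Log2(normalized count + 1) was fitted with limma 3.58.1 in R 4.3.3 (trend and robust) over all 12 libraries, with 4 group means and the replicate number as a block, for 14857 genes that reached 10 normalized counts in 3 or more libraries. P-values were adjusted by Benjamini-Hochberg over all genes, with 0.05 as the threshold. The numbers were taken to pair libraries because the deviations of same-numbered libraries from their group means correlated in all 18 pairs (Pearson's r 0.524 to 0.841 over 11108 genes), against -0.706 to 0.00292 in 36 other pairs. The labels do not say what a number shares.

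CPM gave whole reads for 100% of values within 0.01 reads, and edgeR 4.0.16 (quasi-likelihood, TMM) and DESeq2 1.42.0 were run on these as alternatives for 14150 genes. The authors' FPKM were fitted as log2(FPKM + 0.5) for 14069 genes with at least 0.5 FPKM in 3 libraries. The other alternatives were no block, no filter, a pseudocount of 10, only the groups compared, and leaving out each library. The fit was also run on simulated data that had the replicate effects built in, so that run does not bear on the choice of the block.

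Named genes are FOXM1, the 15 falling genes outside and the 10 inside 5 cell cycle lists and the 10 rising genes with the largest changes (called, same direction in 3 pairs, mean of at least 100), up to 4 members per list by adjusted p, and the 5 genes each way whose effect differed most between backgrounds. Others were picked after their values were seen. The comparison and the 36 gene lists, with 1035 genes tested, were chosen with earlier results of these data known. Symbols came from the authors' tables (14202 genes) or GENCODE (618), and 42 IDs had none. Some genes are not reported here by name, and counts over all genes and lists include them.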

Additional observations from a re-analysis of the deposited data

Results flagged for a closer look

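For the genes named here the effect of the FOXM1 siRNA in siCENPF cells differed from that in siNeg cells by limma's test of the difference (siCENPF+siFOXM1 over siCENPF, minus siFOXM1 over siNeg, on the log2 scale). Among genes that fell, the difference was above 0 for TMEM71 (0.999), SMIM13 (0.724), NECAP1 (0.716) and GPR180 (0.465), whose log2 fold changes in siCENPF cells were below 0 but nearer to it. It was also above 0 for FAM217B (0.720), which stood at log2 0.29 in siCENPF cells (limma's adjusted p = 0.318) against -0.43 in siNeg cells. TMEM71 fell in both backgrounds, with log2 fold changes of -2.53 against siNeg and -1.53 against siCENPF. CENPF, the target of the other siRNA, differed by 0.703 and stood at log2 -0.15 with siFOXM1 against siNeg. It was thus higher with siCENPF+siFOXM1 than with siCENPF, and the part of this in the separate comparison was not tested.

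Among genes that rose against siNeg, the difference was below 0 for LMLN (-1.43), KIAA1467 (-1.16), HIST1H2BK (-1.11), DDAH1 (-1.05), IL1B (-1.02), SRPR (-0.972), MPRIP (-0.791), WDR18 (-0.726), CREB3L2 (-0.557), SESN2 (-0.548), COL4A1 (-0.504), MSMO1 (-0.503), MT-ATP8 (-0.463), KIF3B (-0.411), PRDX1 (-0.404), SPRY2 (-0.391), NPC1 (-0.385), SPARC (-0.384) and TPM3 (-0.363). HDAC1 (-0.703), picked after its values were seen, and PRR11 (-0.346) differed in the same direction. The siNeg libraries enter this difference too, so it is no separate evidence on the rises, and none of the differences passed without the block.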

How the results depend on the processing

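No result reversed under any setting tried. The FOXM1 level was lower in every one, with a log2 fold change between -2.84 and -2.55 when 1 library was left out. The counts of called genes are listed below by comparison and not by size. The comparisons are siFOXM1 against siNeg, siCENPF+siFOXM1 against siCENPF, siFOXM1 against siCENPF, and the difference between backgrounds. The main counts were 1295, 217, 1125 and 125. Without the replicate block they were 98, 12, 68 and 0, the last with 353 genes at an unadjusted p under 0.05, and from FPKM they were 708, 50, 474 and 12; the cause was not tested. With 1 library left out they ran from 660 to 1620, 104 to 281, 487 to 1360 and 64 to 148. edgeR gave 1324, 229, 1134 and 117, and DESeq2 1148, 232, 1012 and 132. Fits of only the groups compared gave 1570, 158 and 1028. Pseudocount 10 and no filter left each within 1.5 times.

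The counts against siCENPF depend on single libraries: leaving out siFOXM1 library 1, 2 or 3 gave 692, 487 and 631. The double-knockdown comparison gave 104, 137 and 114 without siCENPF+siFOXM1 library 1, 2 or 3, and 139 without siCENPF library 1. The difference between backgrounds gave 67 without siCENPF+siFOXM1 library 1 or 2, and 64 and 71 without siFOXM1 library 2 or 3. Of 113 named genes, DESeq2 lost 4 calls (DYRK1A, JAG1, SGMS2 and PSMC1), edgeR lost 1 (MT-CO2) and the fit of FPKM lost 29, SPP1 and CMKLR1 included. Leaving out siFOXM1 library 1, 2 or 3 ended 15, 27 and 25 of the 113 calls, and leaving out siNeg library 1, 2 or 3 ended 16, 7 and 21. Depth limits small changes of genes near 10 normalized counts.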

Other observations

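Of 13 tested mitochondrially encoded mRNAs, MT-ATP8, MT-ND6 and MT-CO2 rose, by log2 0.32, 0.21 and 0.15 (limma's adjusted p = 0.00125, 0.0209 and 0.0457), and all 13 were above 0. By pair the median was 0.07, 0.02 and 0.29, the calls ended without the block, and in the separate libraries the median was -0.07, with 11 of 13 below 0. Nuclear genes of the respiratory chain had a median of 0.00, and limma, edgeR and DESeq2 called 0 of 45, with 1 lower and 2 higher at an unadjusted p under 0.05.

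Of 52 ribosome biogenesis genes 44 were below 0, FTSJ3, EBNA1BP2, DKC1, NOP56 and RRS1 fell, and WDR18 rose by log2 0.65 (limma's adjusted p = 1.72e-06). Of the 52 in the separate libraries 51 were below 0, where limma, edgeR and DESeq2 called none and 14 were lower at an unadjusted p under 0.05. Of 31 proteasome genes 29 were below 0, and PSMC5 and PSMC1 fell by 0.19 and 0.20 (limma's adjusted p = 0.0217 and 0.0485). WDR18 alone of these passed without the block.

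Of 33 lysosomal genes 2 fell (6.06%), CTSC among them, and 2 rose (6.06%), against 4.23% and 4.48% of all genes. The 4 calls ended without the block. That of CTSC also ended from FPKM and without siFOXM1 library 2 or 3 or siNeg library 1 or 3. NPC1, which exports cholesterol from lysosomes, rose by log2 0.42 (limma's adjusted p = 7.49e-05). Of 40 genes of the primary cilium and Hedgehog signalling KIF3B rose, by log2 0.40 (limma's adjusted p = 3.35e-05), and passed without the block. Of 25 Wnt pathway genes DVL3 rose and DKK1, a secreted Wnt inhibitor, fell, each 4.0% of the list. DKK1 fell by 0.38, and by 0.41 in the separate libraries (limma's adjusted p = 0.000458 and 0.000727). The calls of DVL3 and DKK1 against siNeg ended without the block. Of 35 genes of glycolysis and hypoxia VEGFA, LDHA and SLC2A1 rose and GPI fell, and the 4 calls ended without the block. Those of SLC2A1 and GPI also ended from FPKM, and each without any one of 5 of the 6 siFOXM1 and siNeg libraries.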
